A study of Mus musculus with 9 samples.

Results

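The muscle microRNAs (miRNAs) miR-1, miR-133 and miR-206 were followed in mouse colon through 6 mature miRNA entries, chosen by name. They were mmu-miR-1a-3p, mmu-miR-1b-5p, mmu-miR-133a-3p and mmu-miR-133a-5p of the miR-1a and miR-133a clusters, and mmu-miR-133b-3p and mmu-miR-206-3p of the miR-206 and miR-133b cluster, given from here on without the mouse prefix mmu. All 6 were present among the 1155 entries of the table and all 6 were among the 433 that passed the low-count filter. The samples were colons of wild-type C57BL/6J mice on a normal diet, with 3 libraries per group. The DSS_RJA group drank water with 2.5% (w/v) dextran sulfate sodium (DSS), a polysaccharide that injures the colon lining, and received daily gavage of 0.2 mL holding royal jelly acid (RJA) at 10 mg/kg. The DSS group drank the same DSS water, and the Control group drank plain water. No gavage is recorded for the DSS and Control groups, so RJA and gavage cannot be told apart. The labels do not say which animal each sample came from, and p-values therefore measure the spread between these samples.

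In vertebrates miR-1 and miR-133 are cut from shared primary transcripts that are switched on in muscle by serum response factor and its partners. miR-1 favours muscle differentiation, and miR-133 restrains serum response factor and holds back the smooth muscle and cardiac gene programmes in several settings. miR-206 and miR-133b come from a separate locus that is best known from skeletal muscle, whereas miR-1a and miR-133a are also made in heart and smooth muscle. miR-206 shares its seed, the short stretch that pairs with target messenger RNAs, with miR-1, and miR-133b shares its seed with miR-133a. In the colon the main muscle tissue is the smooth muscle of the wall.

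Mature sequences from RefSeq (GRCm38.p6) were matched for 2 of the 6 members, and they show the seeds of these 2, with seed bases 2 to 8 in capitals. Both lie on the plus strand of chromosome 1, miR-206-3p at chr1:20679055-20679076 and miR-133b-3p at chr1:20682834-20682855.
miR-206-3p: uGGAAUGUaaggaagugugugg
miR-133b-3p: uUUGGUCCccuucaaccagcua
Their hairpins, with the mature arm in capitals, show that both members are cut from the 3′ arm of the precursor.
Mir206: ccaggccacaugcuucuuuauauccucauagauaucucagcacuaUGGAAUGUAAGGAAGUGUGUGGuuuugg
Mir133b: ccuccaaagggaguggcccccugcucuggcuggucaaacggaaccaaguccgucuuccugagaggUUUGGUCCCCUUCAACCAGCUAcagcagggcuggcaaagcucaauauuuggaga
In the GENCODE M21 annotation of GRCm38, Mir206 (chromosome 1, 20679010 to 20679082) and Mir133b (20682769 to 20682887) are 3686 bases apart and both overlap the long noncoding RNA gene Gm28653 on the same strand.

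The first miR-1a and miR-133a cluster lies on the plus strand of chromosome 2, with Mir1a-1 at 180389048 to 180389124 and Mir133a-2 at 180398379 to 180398482, outside other annotated genes. The second lies on the minus strand of chromosome 18, with Mir1a-2 and Mir133a-1 inside the antisense transcript Mir133a-1hg and opposite to Mib1. Mature miR-1a-3p and miR-133a-3p can come from either of these clusters.

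miR-1a-3p was the most abundant member, ranking 22nd of 433 tested miRNAs. Its mean level was 3126 CPM (counts per 1000000 after scaling by the trimmed mean of M-values, TMM), and it took 0.311% of all reads on average. miR-133a-3p ranked 55th at 571 CPM and miR-206-3p 74th at 269 CPM. miR-133b-3p averaged 28.6 CPM, and the passenger arm miR-133a-5p averaged 2.80 CPM. The 5 members other than miR-1b-5p together took 0.341% to 0.468% of the reads of a library, out of totals of 5985153 to 8280980 reads. The smooth muscle miRNA miR-143-3p took 66.4% to 75.5% of them. Of the miRNAs of striated muscle, miR-499-5p had 8 to 22 reads per library and miR-208b-3p had 0 or 1. Both are miRNAs of heart and slow skeletal muscle, and they were the 2 of 6 listed striated muscle entries in the table. miR-206-3p had 1184 to 2707 reads in the same libraries, and the cells that it came from were not tested.

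miR-1b-5p had nearly the same counts as miR-1a-3p in every library. miR-1a-3p had 17662, 20312 and 16286 reads in the DSS_RJA libraries 1 to 3, 20523, 20883 and 25908 in DSS, and 24104, 27976 and 21290 in Control. The miR-1b-5p count was lower by 10 to 33 reads in each, a difference of at most 0.151%. In the annotation, all 72 bases of Mir1a-2 lie inside Mir1b on the opposite strand. Over the whole table, 13 pairs of entries with a mean of at least 10 reads had counts within 2% of each other in every library. Precursors were looked up by name, so overlaps can have been missed. In 6 of these pairs, miR-1a-3p with miR-1b-5p among them, they overlapped on opposite strands. Mature sequences of both partners were matched for a different set of 6 pairs, without miR-1a-3p and miR-1b-5p. In each of those 6, 1 partner held a run of 20 or 21 bases that was the reverse complement of the other. They included miR-142a-3p with miR-142b and miR-9-5p with miR-9b-3p, for which the lookup found no overlap. miR-24-3p and miR-3074-5p are shown as an example of such a pair, with the complementary run of 20 bases in capitals.
miR-24-3p: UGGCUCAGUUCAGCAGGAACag
miR-3074-5p: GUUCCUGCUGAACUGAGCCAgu
No source used here gives the rule for reads that match several entries or the opposite strand. miR-1b-5p therefore cannot be taken as a measurement separate from miR-1a-3p, and the pair is 2 of the 6 in each count of members below. This example was chosen after its values were seen. The mature forms of miR-133a-3p and miR-133b-3p are also near copies of each other, differing at their 3′ ends, so how the authors' counting split reads between them is uncertain.

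In DSS colon against Control colon, no member passed the test (0 of 6 in edgeR's quasi-likelihood test with Benjamini-Hochberg adjustment over all 433 miRNAs, and 0 in DESeq2 and limma-voom). Over all tested miRNAs 3.93% were called in this comparison, so a count of 0 among 6 members is near the background. All 6 log2 fold changes were negative on the TMM scale. At an unadjusted p under 0.05 there were 2 members, miR-1a-3p and its near copy miR-1b-5p, against 33.0% of all tested miRNAs. The median log2 fold change of the 6 members, miR-1a-3p and its near copy both counted, was -0.34 on the TMM scale, beside 0.01 for all tested miRNAs. Scaling by library size alone moved both sides, with a median over all tested miRNAs of 0.39. There miR-1a-3p and miR-1b-5p were at -0.02 each, miR-133b-3p at -0.06, miR-133a-5p at 0.09, miR-133a-3p at 0.25 and miR-206-3p at 0.37. Signs of the members thus depended on the scaling. Each of the 6 lay below the median of all tested miRNAs in these 2 fits, but miR-206-3p only just, at -0.0067 beside 0.01 and 0.37 beside 0.39. In other fits miR-206-3p lay on either side of the median. It was above with limma-voom (0.010 beside -0.0059) and below with a minimum count of 50 (0.011 beside 0.024).

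**Figure D1:**
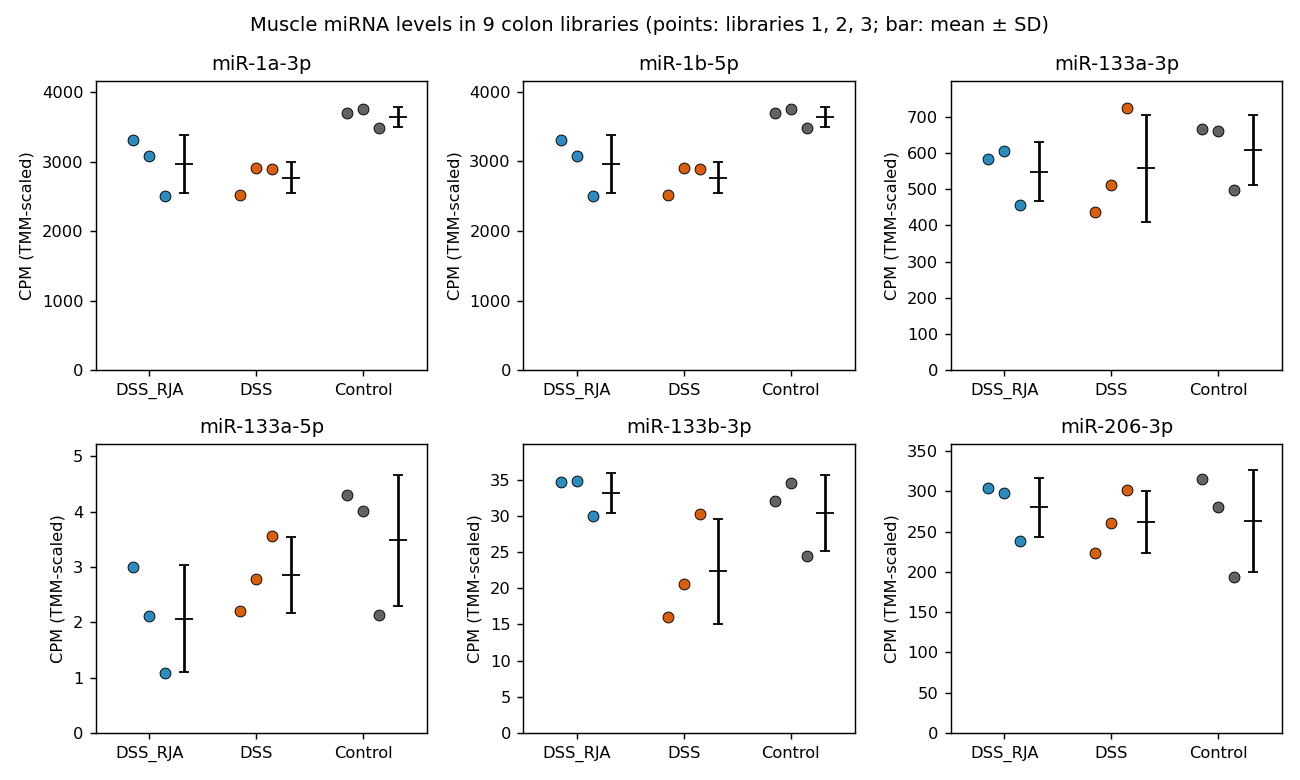
Level of each member in CPM scaled by TMM (y axes from 0) in the 9 libraries, with DSS_RJA, DSS and Control from left to right. Points are libraries 1, 2 and 3 of a group, and bars give the mean ± SD. All 3 Control libraries lie above the DSS and DSS_RJA libraries for miR-1a-3p and miR-1b-5p, while the groups overlap for the other 4 members.

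miR-1a-3p, which promotes muscle differentiation, was at 3314, 3080 and 2504 CPM in DSS_RJA, 2515, 2909 and 2889 CPM in DSS, and 3698, 3750 and 3478 CPM in Control. All DSS and all DSS_RJA libraries were below all Control libraries, and the DSS_RJA and DSS libraries overlapped. The mean of the DSS libraries was 2771 ± 222 CPM and that of the Control libraries 3642 ± 144 CPM (SD, n = 3 each). The difference was -0.39 ± 0.17 as a log2 fold change with its standard error, and it did not reach the threshold (adjusted p = 0.134 in edgeR). The 95% interval of that change ran from -0.77 to -0.02, or 0.588-fold to 0.985-fold. Groups that did not overlap were common in this comparison, at 41.6% of tested miRNAs, with 22.6% lower in DSS. On the deposited TPM scale, which has no TMM factor, miR-1a-3p was at 2951, 3294 and 2642 TPM in DSS_RJA, 2800, 3236 and 3423 TPM in DSS, and 3207, 3378 and 3017 TPM in Control. On that scale the 3 groups overlapped, and with library size alone the log2 fold change of DSS against Control was -0.02 (edgeR adjusted p = 0.925). With library size counted without miR-143-3p it turned to 0.08.

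**Figure D2:**
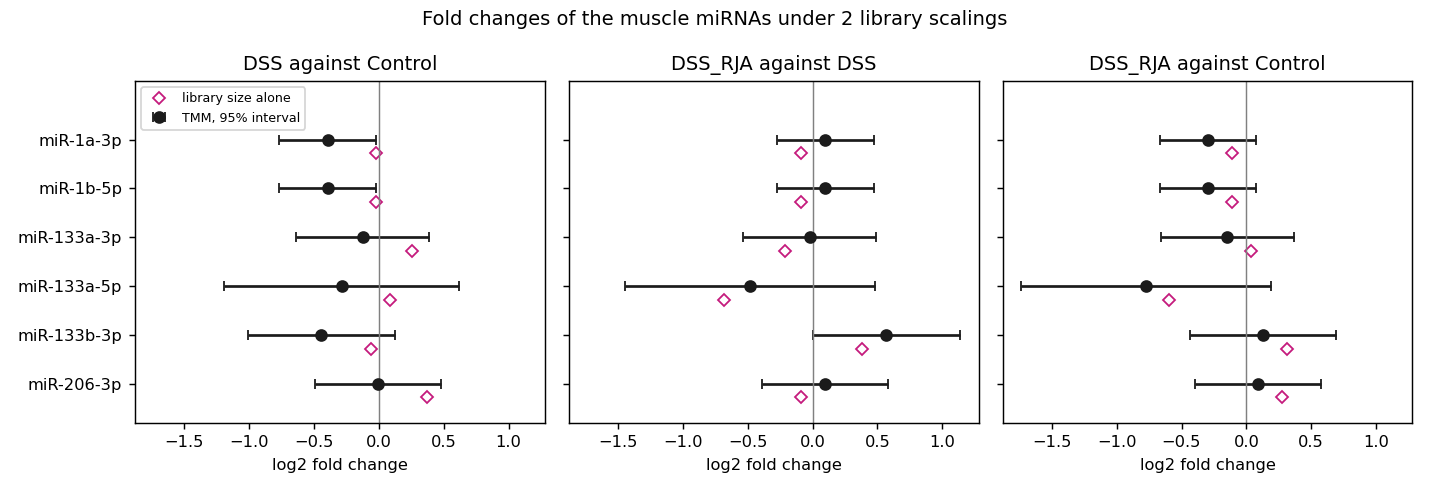
log2 fold change (x axis) of each member in the 3 comparisons. Filled points are the fit with TMM scaling, with 95% intervals, and open diamonds the fit with library size alone. The diamonds lie to the right of the points in DSS against Control, where miR-206-3p is at -0.0067 with TMM and 0.37 with library size alone, and to the left in DSS_RJA against DSS.

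miR-133a-3p, the main arm of the other miRNA of these clusters, was at 584, 605 and 455 CPM in DSS_RJA, 437, 510 and 723 CPM in DSS, and 666, 660 and 497 CPM in Control. The 3 groups overlapped, and DSS 3 held both the highest level and the largest number of reads, 6487. The log2 fold change of DSS against Control was -0.13 ± 0.23 (edgeR adjusted p = 0.736), with a 95% interval of -0.64 to 0.39. Its sign turned with library size alone, where it was 0.25. The passenger arm miR-133a-5p had 16, 14 and 7 reads in DSS_RJA, 18, 20 and 32 in DSS, and 28, 30 and 13 in Control. These counts are low and the groups overlapped. Its log2 fold change in DSS against Control was -0.29 with a 95% interval of -1.19 to 0.62, and 0.09 with library size alone.

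miR-206-3p, the miRNA best known from skeletal muscle and regenerating muscle fibres, was at 305, 298 and 238 CPM in DSS_RJA, 224, 260 and 302 CPM in DSS, and 315, 281 and 193 CPM in Control. The 3 groups overlapped, and both the highest and the lowest level were in Control libraries. The log2 fold change of DSS against Control was -0.0067 ± 0.22 (edgeR adjusted p = 0.992). The 95% interval of -0.49 to 0.48 leaves room for a change of up to 1.39-fold upward or 0.711-fold downward. Its cluster partner miR-133b-3p was at 34.7, 34.9 and 30.0 CPM in DSS_RJA, 16.1, 20.6 and 30.3 CPM in DSS, and 32.1, 34.6 and 24.5 CPM in Control. DSS 1 and DSS 2 were the lowest of the 9 libraries, and DSS 3 lay inside the range of Control. The log2 fold change of DSS against Control was -0.44 ± 0.25 (edgeR adjusted p = 0.266). It was -0.72 without DSS 3 and -0.24 without DSS 1, and -0.06 with library size alone and 0.07 with library size counted without miR-143-3p.

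When RJA was given with DSS, again no member passed the test against DSS (0 of 6 in edgeR, and 0 in DESeq2 and limma-voom), where 0.231% of all tested miRNAs were called, so that 0 of 6 is near the background here too. The member with the smallest p was miR-133b-3p, which was 1.48-fold higher in DSS_RJA on the TMM scale, with means of 33.2 ± 2.78 CPM over the DSS_RJA libraries and 22.3 ± 7.29 CPM over the DSS libraries (SD, n = 3 each). The log2 fold change was 0.57 ± 0.25, with a 95% interval of 0.0026 to 1.14, an unadjusted p of 0.0491 and an adjusted p of 0.338 in edgeR. The groups overlapped through DSS 3, whose 30.3 CPM exceeded the 30.0 CPM of DSS_RJA 3. Without DSS 3 the log2 fold change was 0.86, and without DSS 1 it was 0.38. At an unadjusted p under 0.05 this was 1 of 6 members, against 14.1% of all tested miRNAs. No member separated DSS_RJA from DSS without overlap, and 13.2% of all tested miRNAs did. The other members had log2 fold changes of 0.10 ± 0.17 for miR-1a-3p, 0.10 ± 0.22 for miR-206-3p, -0.02 ± 0.23 for miR-133a-3p and -0.48 ± 0.43 for miR-133a-5p. With library size alone miR-1a-3p and miR-206-3p turned to -0.09 each, and miR-133b-3p was at 0.38.

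In DSS_RJA against Control, none of the 6 members passed in edgeR, DESeq2 or limma-voom, and none had an unadjusted p under 0.05 in edgeR, where 0% of tested miRNAs were called and 14.3% had an unadjusted p under 0.05. miR-1a-3p averaged 2966 ± 417 CPM over the DSS_RJA libraries and 3642 ± 144 CPM over the Control libraries (SD, n = 3 each), a log2 fold change of -0.30 ± 0.17 (edgeR adjusted p = 0.426). The 2 groups did not overlap, as in 21.7% of tested miRNAs in this comparison, with 11.5% lower in DSS_RJA. miR-133a-5p, with its low counts, had the widest interval of the members, from -1.74 to 0.19 around -0.77. miR-206-3p was at 0.09 ± 0.22, miR-133b-3p at 0.13 ± 0.25 and miR-133a-3p at -0.15 ± 0.23, the last turning to 0.04 with library size alone. This comparison shares its Control libraries with DSS against Control and its DSS_RJA libraries with DSS_RJA against DSS.

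Ratios of reads within a library need no scaling between libraries, and 5 of them were tested in the 3 comparisons with a two-sided exact permutation test over the samples. With 3 samples against 3 this test cannot give a p under 0.1, and the smallest p adjusted over the 15 tests by Benjamini-Hochberg was 0.3, so no ratio could pass. The ratio of miR-133b-3p to miR-133a-3p separated the 3 groups. How often ratios of other miRNA pairs separate groups was not tested. For this ratio and those below, separation therefore cannot be called particular to these members. Single tested miRNAs separated at 41.6% between DSS and Control, 13.2% between DSS_RJA and DSS, and 21.7% between DSS_RJA and Control. As a percentage of miR-133a-3p reads, miR-133b-3p stood at 5.94%, 5.76% and 6.58% in DSS_RJA, 3.67%, 4.04% and 4.19% in DSS, and 4.82%, 5.24% and 4.93% in Control. Every DSS_RJA library was above every Control library, and every Control library was above every DSS library. The log2 ratio was -4.03 ± 0.10 in DSS_RJA, -4.65 ± 0.10 in DSS and -4.32 ± 0.06 in Control (SD, n = 3 each). It was 1.54-fold higher in DSS_RJA than in DSS, 0.794-fold in DSS against Control and 1.22-fold in DSS_RJA against Control, each with an exact permutation p of 0.1 (adjusted p = 0.3).

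**Figure D3:**
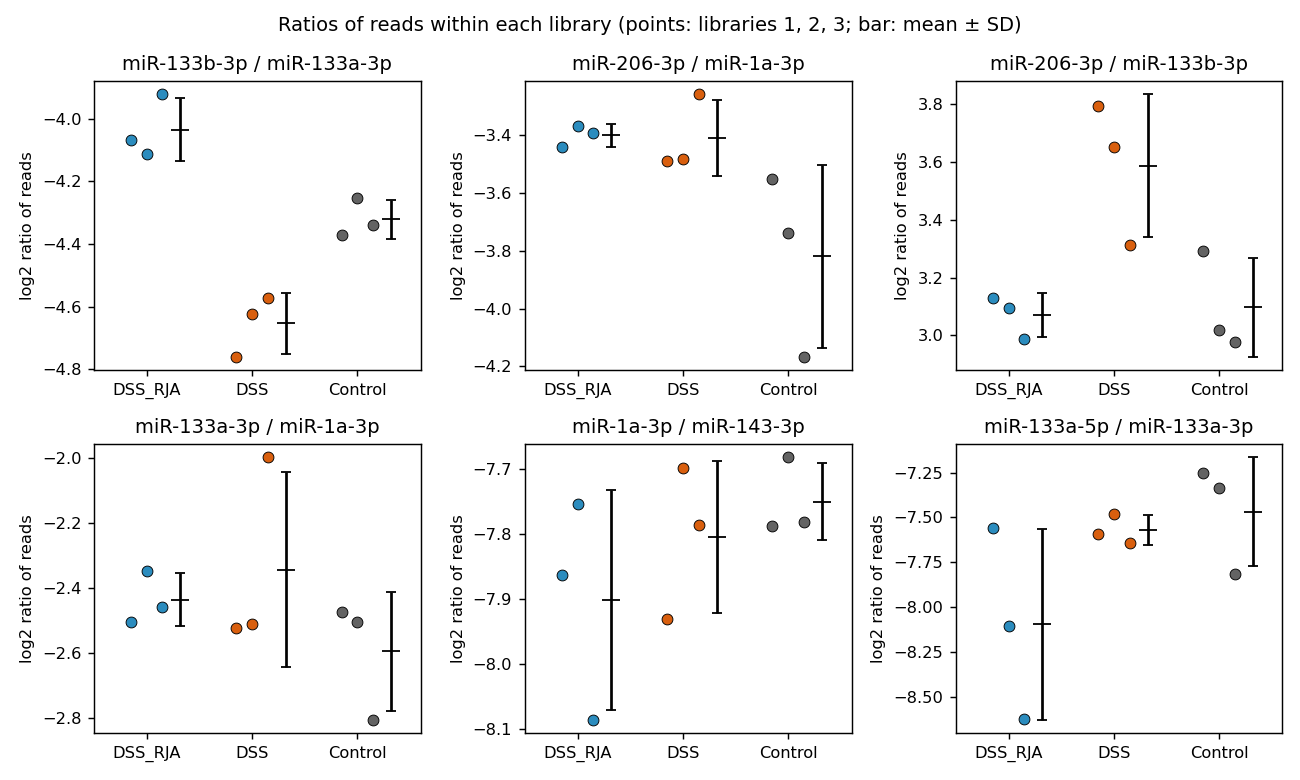
log2 ratio of reads (y axes) between pairs of muscle miRNAs, or between miR-1a-3p and miR-143-3p, in each library, with DSS_RJA, DSS and Control from left to right. Points are libraries 1, 2 and 3, and bars give the mean ± SD. The ratio of miR-133b-3p to miR-133a-3p is highest in the 3 DSS_RJA libraries and lowest in the 3 DSS libraries, with Control between them.

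As a share of the reads of both miRNAs, miR-133b-3p made up 5.61%, 5.45% and 6.18% in DSS_RJA, 3.54%, 3.88% and 4.02% in DSS, and 4.60%, 4.98% and 4.70% in Control. The 95% Wilson intervals of the DSS_RJA libraries began at 4.80% or above, and those of the DSS libraries ended at 4.55% or below. Intervals of the Control libraries, from 4.02% to 5.61% in all, reached into both. Such intervals treat reads as independent and leave out the spread between samples. PCR reads without molecular identifiers are not independent molecules, so the intervals can be too narrow even for counting error. This share was computed after the ratios had been seen. The part that the division of reads between these near copies has in the ratio was not tested.

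Within the miR-206 and miR-133b cluster the ratio of the 2 miRNAs varied between libraries. There were 8.78, 8.56 and 7.94 miR-206-3p reads per miR-133b-3p read in DSS_RJA, 13.9, 12.6 and 9.95 in DSS, and 9.83, 8.12 and 7.89 in Control. All 3 DSS libraries were above all others, although DSS 3 at 9.95 was close to Control 1 at 9.83. The ratio was 1.41-fold higher in DSS than in Control and 0.699-fold in DSS_RJA against DSS, with an exact permutation p of 0.1 in both, the smallest possible. It was chosen after its values were seen and stands outside the 15 tests. DSS 1 and DSS 2, the libraries with the lowest miR-133b-3p levels, had the highest ratios. The same miR-133b-3p reads, 131 to 272 per library, enter this ratio, the ratio to miR-133a-3p and the fold change of miR-133b-3p, so these are not separate observations. How reads were divided between miR-133b-3p and miR-133a-3p bears on this ratio too and was not tested.

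The ratio of miR-206-3p to miR-1a-3p, which sets the 2 loci beside each other through a shared seed, was 9.19%, 9.69% and 9.51% in DSS_RJA, 8.90%, 8.95% and 10.4% in DSS, and 8.52%, 7.49% and 5.56% in Control. All DSS_RJA and DSS libraries were above all Control libraries. The ratio was 1.33-fold higher in DSS than in Control and 1.34-fold higher in DSS_RJA than in Control, each with an exact permutation p of 0.1 (adjusted p = 0.3), and it overlapped between DSS_RJA and DSS. Control 3 was the lowest library by a wide margin, and without it the log2 difference from Control was 0.23 for DSS and 0.24 for DSS_RJA, against 0.41 and 0.42 with all libraries.

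Inside the miR-1a and miR-133a clusters, the reads of miR-133a-3p were 17.6%, 19.6% and 18.2% of those of miR-1a-3p in DSS_RJA, 17.4%, 17.5% and 25.0% in DSS, and 18.0%, 17.6% and 14.3% in Control. The groups overlapped in all 3 comparisons, and 6 of the 9 libraries lay between 17.4% and 18.2%. DSS 3 and DSS_RJA 2 were above that span and Control 3 below it. Without DSS 3 the log2 difference of DSS from Control was 0.08, against 0.25 with it. Set against miR-143-3p, miR-1a-3p reads stood at 0.429%, 0.463% and 0.368% in DSS_RJA, 0.410%, 0.481% and 0.453% in DSS, and 0.452%, 0.487% and 0.455% in Control. The 3 groups overlapped, and the mean ratio was 0.963-fold in DSS against Control (exact permutation p = 0.5, adjusted p = 0.692). The passenger arm miR-133a-5p stood at 0.514%, 0.351% and 0.236% of miR-133a-3p reads in DSS_RJA, 0.505%, 0.546% and 0.493% in DSS, and 0.645%, 0.609% and 0.427% in Control, also with overlap in all 3 comparisons.

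Companion miRNAs were listed by name to set the members in their tissue. Of 5 smooth muscle entries 4 were tested, and 0 passed in edgeR in each of the 3 comparisons, with medians of -0.18, 0.14 and -0.24 for DSS against Control, DSS_RJA against DSS and DSS_RJA against Control. At an unadjusted p under 0.05 there were 2, 1 and 1 of them, and DESeq2 and limma-voom called 0. In DSS against Control edgeR called 1 without DSS_RJA 1, without DSS_RJA 3, with only the 2 groups or with library size alone. miR-143-3p, which with miR-145a-5p promotes the contractile smooth muscle state, averaged 618413 ± 17145 CPM over the DSS libraries and 784009 ± 28847 CPM over the Control libraries (SD, n = 3 each). The lower level in DSS on the TMM scale was not seen on the TPM scale, where miR-143-3p averaged 703468 ± 45331 TPM in DSS and 688629 ± 23029 TPM in Control. Its log2 fold change of -0.34 ± 0.13 on the TMM scale (edgeR adjusted p = 0.110) was close in size to that of miR-1a-3p. miR-145a-5p of the same cluster was at 0.20 ± 0.16 (edgeR adjusted p = 0.424). In DSS_RJA against DSS, miR-145a-5p was at -0.52 ± 0.16, with groups that did not overlap and an edgeR adjusted p of 0.186. Over the 9 libraries, Pearson's r of log2 CPM with miR-1a-3p was 0.82 for miR-143-3p and 0.01 for miR-145a-5p. The log2 TMM factor of the libraries had an r of -0.81 with the log2 CPM of miR-1a-3p and of -0.95 with that of miR-143-3p. With their log2 TPM it had an r of 0.02 and 0.44. The 0.82 was computed on the TMM scale, in which both miRNAs share the scaling factor, and their r on the TPM scale was not computed. Of the 6 other entries of the muscle clusters that were listed, miR-1a-1-5p was in the table with 2 reads in Control 3 and 0 elsewhere, and the others were not analysed here. Of 6 listed miRNAs of striated muscle, miR-499-5p was the one tested, with log2 fold changes of 0.04, -0.0055 and 0.03 in DSS against Control, DSS_RJA against DSS and DSS_RJA against Control (lowest edgeR adjusted p = 0.969).

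**Figure D4:**
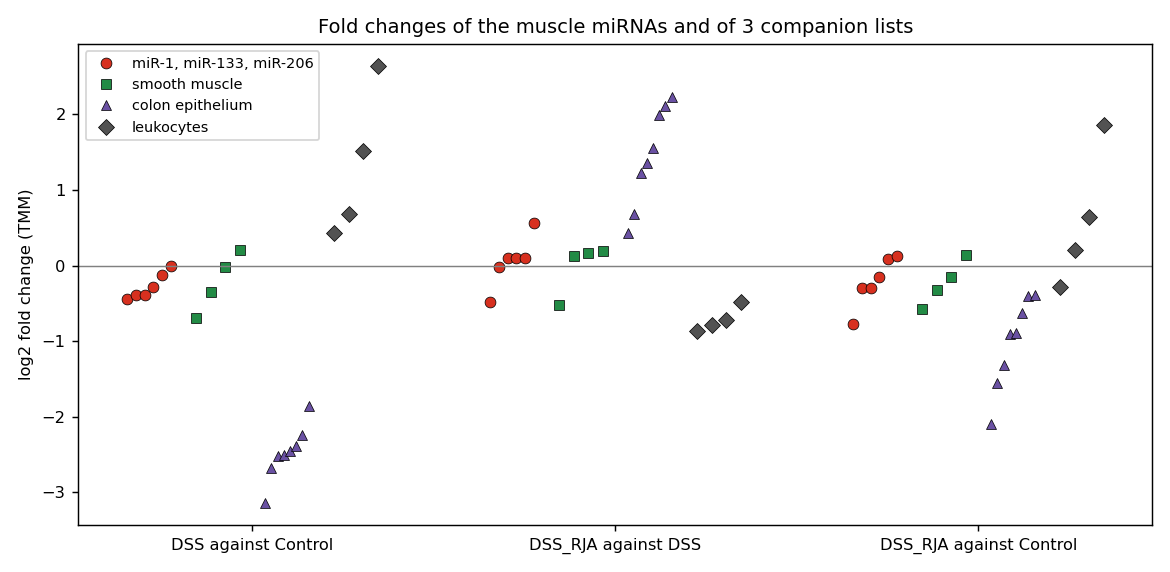
log2 fold change on the TMM scale (y axis) of each tested entry of the muscle miRNAs, the smooth muscle list, the colon epithelium list and the leukocyte list, in the 3 comparisons (x axis). The muscle miRNAs and the smooth muscle list stay between -0.77 and 0.57, while the 8 epithelial miRNAs run from -3.14 to -1.86 in DSS against Control.

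The miRNAs of the colon epithelium and of leukocytes covered a wider range than the members. The 8 epithelial miRNAs had negative values in DSS against Control, with a median log2 fold change of -2.47, and positive ones in DSS_RJA against DSS, with a median of 1.45. Medians of the 4 leukocyte miRNAs were 1.10 and -0.75. In DSS_RJA against Control the medians were -0.90 for the epithelial and 0.42 for the leukocyte miRNAs, with 1 of each at an unadjusted p under 0.05. There 0 were called by DESeq2, by limma-voom and by edgeR with TMM scaling, the low-count filter and all libraries. That edgeR fit also called no entry of either list in the other 2 comparisons, while some other edgeR fits did. In it, 8 epithelial and 2 leukocyte miRNAs had an unadjusted p under 0.05 in DSS against Control, and 3 and 0 in DSS_RJA against DSS. DESeq2 called 8 and 2 of them in DSS against Control and 1 and 0 in DSS_RJA against DSS, and limma-voom called 3 and 1, then 0 and 0. These counts moved with single libraries, and in DSS against Control edgeR called 8 epithelial miRNAs without DSS 2 or without DSS_RJA 3, and 3 without DSS_RJA 1. In DSS_RJA against DSS it called 4 epithelial miRNAs without DSS_RJA 3. The epithelial miRNA miR-192-5p averaged 23287 ± 21353 CPM over the DSS_RJA libraries, 9079 ± 8042 CPM over the DSS libraries and 57780 ± 6823 CPM over the Control libraries (SD, n = 3 each). miR-200b-3p, the next most abundant of that list, averaged 13482 ± 9894 CPM in DSS_RJA, 3395 ± 3036 CPM in DSS and 17738 ± 1166 CPM in Control. Among the leukocyte miRNAs, miR-150-5p of lymphocytes was the most abundant, with averages of 738 ± 498 CPM in DSS_RJA, 1348 ± 424 CPM in DSS and 473 ± 48.8 CPM in Control. The neutrophil miRNA miR-223-3p averaged 45.4 ± 47.4 CPM in DSS_RJA, 78.3 ± 36.0 CPM in DSS and 12.5 ± 0.885 CPM in Control. Their part in the values of the members was not tested. In such bulk samples, fewer cells of a type and less RNA per cell cannot be told apart.

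By likeness over the 9 libraries, 3 of the 5 miRNAs nearest to miR-1a-3p on the TMM scale were entries of the epithelial list. The 5 miRNAs with the highest Pearson's r of log2 CPM with it, among 238 candidates of at least 10 CPM, were miR-205-5p (0.97), miR-200a-3p (0.94), miR-378a-3p (0.94), miR-192-5p (0.94) and miR-194-5p (0.93). On the deposited TPM scale the same r values were 0.51, 0.56, 0.58, 0.42 and 0.48. With the mean of the 8 epithelial miRNAs, r was 0.93 on the TMM scale and 0.43 on the TPM scale. The TMM factor itself was 1.01 on average in DSS_RJA, 1.14 in DSS and 0.879 in Control. Its log2 value had an r of -0.81 with the CPM of miR-1a-3p and of 0.02 with its TPM, both as log2 values over 9 libraries. On the TMM scale the points share this factor on both axes. The log2 factor also had an r of -0.87 with the log2 CPM of the epithelial miR-192-5p and of -0.84 with its log2 TPM. The part of the factor in the r values of miR-1a-3p was not tested.

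**Figure D5:**
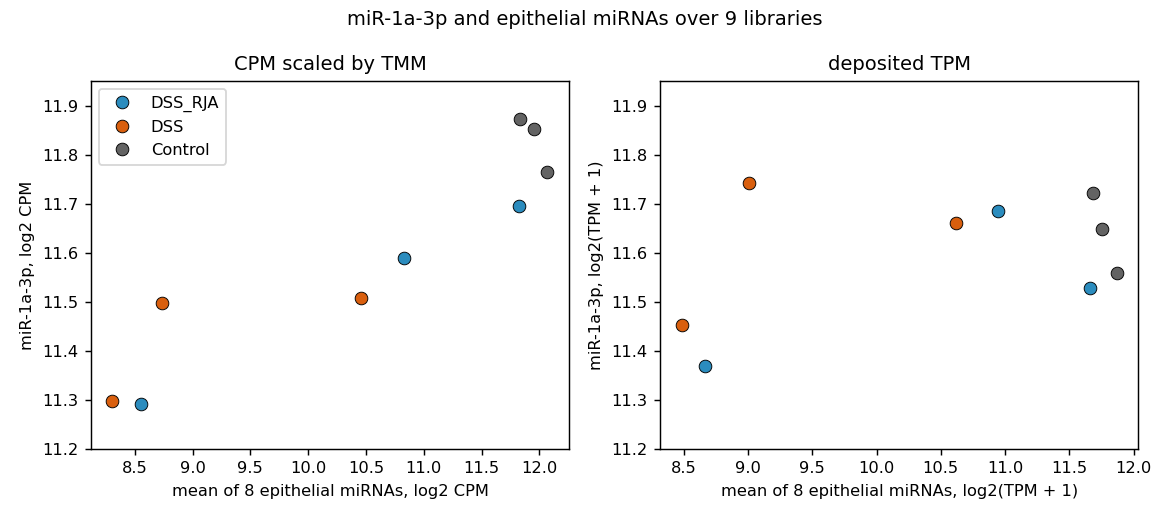
Level of miR-1a-3p (y axis, log2) against the mean log2 level of 8 epithelial miRNAs (x axis) in the 9 libraries, on CPM scaled by TMM at left and on deposited TPM at right. Colours mark DSS_RJA, DSS and Control. The points lie along a rising line at left, with r = 0.93, and scatter at right, with r = 0.43.

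The neighbours of the other members were outside the companion lists. miR-133a-3p was closest to miR-486a-3p, miR-486b-3p and miR-486a-5p (r = 0.91, 0.90 and 0.90), which are abundant in red blood cells and muscle and whose counts lay within 2% of each other in every library, and these values were 0.90, 0.90 and 0.89 on the TPM scale. miR-23b-3p (0.86) and miR-30c-2-3p (0.81) followed. miR-133b-3p was closest to miR-193b-3p (0.91, and 0.88 on TPM), miR-22-5p (0.87), miR-27b-5p (0.84), miR-139-5p (0.83) and miR-744-5p (0.81). miR-206-3p had weaker neighbours, led by miR-184-3p (0.79, and 0.90 on TPM) and miR-744-5p (0.71, and 0.82 on TPM), with the 3 miR-486 entries at 0.69 to 0.70. Among the members, miR-206-3p was more like miR-133a-3p (r = 0.80) than like its cluster partner miR-133b-3p (0.65), and miR-1a-3p had an r of 0.62 with miR-133a-3p, its own cluster partner, and of 0.32 with miR-206-3p. With 9 libraries these values are descriptions, and no difference between them was tested.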

How the data were processed

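Small RNA was ligated to adaptors with an NEBNext small RNA kit, amplified by PCR and size-selected for inserts between 18 and 40 bp, then read from 1 end over 50 bases, per the labels' protocols. Bowtie and DESeq are named, without version or role, per the submitters' processing notes. No source used here gives the build, the miRNA annotation or the rule for multiple matches. Raw counts for each mature miRNA were deposited with TPM values. A deposited TPM was the count per 1000000 reads of its library, with no length term. Columns were matched to samples by title, and samples grouped by title.

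Counts were filtered with filterByExpr (minimum count 10) and scaled by TMM in edgeR 4.0.16 (R 4.3.3). A quasi-likelihood test was fitted to all 9 libraries with 1 mean per group (6 residual degrees of freedom), with Benjamini-Hochberg adjustment over 433 miRNAs at 0.05. Standard errors are approximate, the absolute log2 fold change over the root of the F statistic, and intervals rest on them. Ratios used reads + 0.5 for log2 values. Alternatives used DESeq2 1.42.0 and limma 3.58.1. The test was tested on simulated data. Named miRNAs were the members, entries of the companion lists, and for 4 members the 5 miRNAs with the highest r at a mean of at least 10 CPM, on log2 CPM with a prior count of 2. From each companion list the 2 most abundant and the called entries were to be named, while miR-24-3p and miR-3074-5p were chosen after their values were seen. The members, lists and ratios were chosen with earlier results of these data known.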

Additional observations from a re-analysis of the deposited data

How the results depend on the processing

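No member passed in any of 21 other fits, in any comparison: the count stayed at 0 with other scalings, tools, filters and left-out libraries, with miR-1b-5p not tested in the fit that kept one entry of near-identical sets and miR-133a-5p not tested with a minimum count of 50. The number of all miRNAs called moved. In DSS against Control it was 17, and 73 (64 higher, 9 lower, against 10 and 7) with library size alone, 80 (63 higher, 17 lower) with library size without miR-143-3p, 73 with no filter, 93 with only the 2 groups, 38 with limma-voom, 62 and 79 on log2(TPM + 0.1) and log2(TPM + 1), and 59 with DESeq2. In DSS_RJA against DSS it was 1, and 2 with RLE scaling, 40 with no filter, 0 with only the 2 groups, 0 with limma-voom, 2 on log2(TPM + 1) and 12 with DESeq2. In DSS_RJA against Control it was 0, and 2 with library size without miR-143-3p, 19 with no filter, 2 with only the 2 groups and 2 with DESeq2. With 1 library left out the ranges were 3 to 90, 0 to 37 and 0 to 1, with 90 and 37 without DSS_RJA 3. In DSS against Control it was 47 without DSS_RJA 1, 5, 46 and 11 without DSS 1, 2 and 3, and 3, 6 and 3 without Control 1, 2 and 3. In DSS_RJA against DSS it was 0 without each other library. In DSS against Control, of the 8 epithelial miRNAs 8 were called with no filter and with only the 2 groups, 4 with library size without miR-143-3p and 1 with library size alone, and of the 4 leukocyte miRNAs 2, 2, 2 and 1. In DSS_RJA against DSS, 6 and 1 were called with no filter, and in DSS_RJA against Control 5 and 1. The cause was not tested.

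Deviations of same-numbered libraries from their group means correlated at -0.46 to 0.18, and 2 of 9 libraries correlated best with their own number. With 3 libraries per group these values cannot exclude a pairing by replicate number. With the replicate block 4 and 0 miRNAs were called in DSS against Control and DSS_RJA against DSS, and 0 members.

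Signs of small fold changes depended on the scaling. Library size alone, library size without miR-143-3p, log2(TPM + 0.1) and log2(TPM + 1) moved the median of all tested miRNAs in DSS against Control to 0.39, 0.50, 0.36 and 0.33. In these 4, in that order, the fold change in DSS against Control turned to 0.25, 0.38, 0.23 and 0.23 for miR-133a-3p, to 0.086, 0.19, 0.12 and 0.085 for miR-133a-5p, and to 0.37, 0.47, 0.38 and 0.38 for miR-206-3p. In DSS_RJA against DSS it turned to -0.090, -0.12, -0.091 and -0.091 for miR-1a-3p, to -0.090, -0.11, -0.090 and -0.090 for miR-1b-5p, and to -0.091, -0.13, -0.082 and -0.081 for miR-206-3p. In DSS_RJA against Control it turned to 0.039, 0.11, 0.042 and 0.042 for miR-133a-3p. Library size without miR-143-3p also turned miR-1a-3p, miR-1b-5p and miR-133b-3p in DSS against Control to 0.077, 0.076 and 0.067. miR-206-3p in DSS against Control, at -0.0067, was 0.0031 with RLE, 0.020 with no filter, 0.011 with a minimum count of 50, 0.022 with the replicate block, 0.037 with one entry kept of near-identical sets, 0.074 with only the 2 groups, 0.010 with limma-voom and 0.0030 with DESeq2.

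With 1 library left out, DSS against Control ran from -0.35 to 0.031 for miR-133a-3p (0.031 without DSS 1), -0.48 to -0.07 for miR-133a-5p, -0.72 to -0.24 for miR-133b-3p and -0.13 to 0.19 for miR-206-3p. DSS_RJA against DSS ran from -0.0053 to 0.18 for miR-1a-3p, -0.0052 to 0.18 for miR-1b-5p, -0.17 to 0.21 for miR-133a-3p, -0.85 to -0.20 for miR-133a-5p, 0.38 to 0.86 for miR-133b-3p and -0.0076 to 0.21 for miR-206-3p, and DSS_RJA against Control from -0.077 to 0.26 for miR-206-3p. With another added count, the 5 ratios set out for testing moved by less than the SD pooled over the 2 groups compared. The settings with same-numbered libraries and with 1 library left out could not exceed that SD. With 3 libraries per group, the mean difference within same-numbered libraries equals the difference of group means. Leaving out 1 of 3 libraries cannot move a group mean that far. Left-out libraries changed the sign of small differences for miR-133a-3p to miR-1a-3p in DSS_RJA against DSS (-0.18 to 0.08), miR-1a-3p to miR-143-3p in DSS against Control (-0.11 to 0.0079), miR-206-3p to miR-1a-3p in DSS_RJA against DSS (-0.03 to 0.09) and miR-133a-5p to miR-133a-3p in DSS against Control (-0.28 to 0.0048). The ratio of miR-133b-3p to miR-133a-3p kept its sign, at -0.37 to -0.28, 0.56 to 0.66 and 0.23 to 0.33 on the log2 scale. miR-133a-5p, at 7 to 32 reads, is limited by depth.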
